A study of Micropterus salmoides with 18 samples.

Results

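The axonemal dynein arm genes of largemouth bass (Micropterus salmoides, a farmed freshwater fish) were followed through gonads kept warm, kept at the control temperature or taken on day 0. The members are the table entries whose lower-case symbol begins with dnah, dnai or dnal and a digit, with dnali1, with dnaaf, or with odad and a digit. They number 22 of 43106 entries, made up of 9 heavy chains, 5 intermediate or light chains, 4 assembly factors and 4 docking complex genes. The 18 RNA-seq libraries fall into 6 labelled groups of 3. Groups HT-F and HT-M were sampled after 28 days at 28 °C, reached within 2 h. Groups NC-M and NC-F were sampled after 28 days at 20 °C, and groups IC-F and IC-M at the start, on day 0. No temperature was assigned to the day 0 libraries here, so comparisons with them may differ in more than time. The labels give no strain, no age and no treatment other than temperature, and do not tell if libraries within a group stem from different fish, tanks or pools. The p-values below therefore measure library-to-library spread alone, part or all of which may be technical.

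The sperm tail beats because dynein motors slide the microtubule doublets of its axoneme past one another. Outer arms carry the heavy chains of the dnah5 and dnah9 kind, the intermediate chains dnai1 and dnai2 and the light chain dnal1, and are fixed to the doublet by the docking complex (odad1 to odad4). Inner arms carry other heavy chains (dnah1, dnah2, dnah3, dnah6, dnah10, dnah12), the intermediate chain dnai3 and the light intermediate chain dnali1. Arms are put together in the cytoplasm before they enter the tail, with the help of chaperone-linked dnaaf proteins. These roles are known mainly from Chlamydomonas, mouse and human. In human patients, loss of several of these genes gives immotile sperm and cilia.

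The letters F and M in the group names went against the gonad genes in 12 of the 18 libraries, all of those of the IC and HT groups, so the groups are called by their labels and by the type of gonad that their genes show. Libraries of HT-F, NC-M and IC-F were testis-type. The median of 10 oocyte genes lay between 1.2 and 2.12 on the log2(FPKM + 1) scale in these 9 libraries, against 7.56 to 8.04 in the 9 libraries of HT-M, NC-F and IC-M, which were ovary-type. The testis gene dmrt1 lay between 41.7 and 112 FPKM in testis-type libraries, against 0.04 to 0.21 FPKM in ovary-type libraries. FPKM (fragments relative to gene length and to all mapped fragments) are not counts, so the depth of each library is unknown and no counting interval is given. Values of a library summed to between 745181 and 1020595 FPKM.

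In testis-type libraries the members were highest on day 0, and the libraries of NC-M were split. The 22 members summed to 1150.5, 1031 and 918 FPKM in HT-F libraries 1, 2 and 3. In NC-M libraries 1, 2 and 3 the sum was 259.9, 262 and 1044 FPKM, and in IC-F libraries it was 1668, 1651 and 1696 FPKM. Day 0 libraries were high and close together, warm libraries lower, and NC-M 1 and NC-M 2 lowest, while NC-M 3 stood among the warm libraries. All 9 ovary-type libraries summed to 35.0 to 46.0 FPKM. In bulk tissue such as this, fewer cells of a type and less RNA per cell cannot be told apart. Taking each member other than dnah5l as a percent of its IC-F mean, the median of 21 members was 63.7%, 58.1% and 53.8% in HT-F 1, 2 and 3. It was 16.0%, 13.7% and 68.5% in NC-M 1, 2 and 3. Every comparison with NC-M holds both kinds of library, and its count of called members is given also without single libraries. Over all genes, NC-M 3 correlated on the log2 scale with NC-M 1 and NC-M 2 at 0.903 and 0.908 and with the HT-F libraries at 0.949 to 0.957, while NC-M 1 correlated with NC-M 2 at 0.945. Within the other groups the correlation was 0.958 to 0.991. Whether NC-M 3 carries the right label was not tested.

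**Figure D1:**
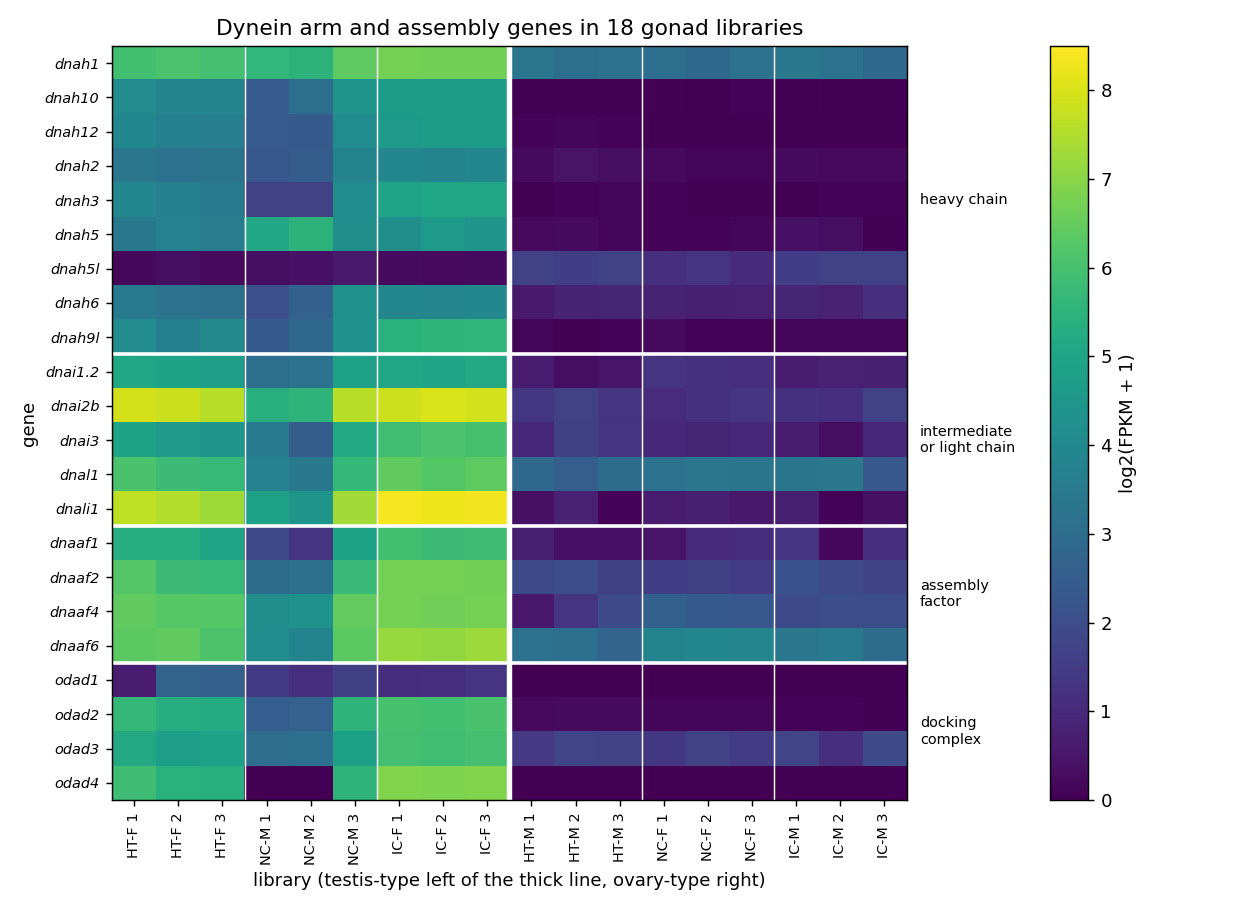
Level of the 22 members (rows, grouped by role) in the 18 libraries (columns), as log2(FPKM + 1) by colour. Testis-type libraries left of the thick line are bright except NC-M 1 and NC-M 2, ovary-type libraries are dark, and dnah5l is the 1 row with the reverse pattern.

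Among the heavy chains, which hold the motor, dnah1 was the highest in every group. This inner arm chain, needed for the human sperm tail, had 59.9, 66.8 and 60.7 FPKM in HT-F libraries, 48.9, 44.4 and 83.1 FPKM in NC-M libraries and 105, 102 and 102 FPKM in IC-F libraries. It was followed on day 0 by dnah9l (an outer arm chain by its name) at 45.3 ± 3.2 FPKM, dnah3 at 30.9 ± 0.60 FPKM and dnah10 at 24.5 ± 0.24 FPKM (SD, n = 3). The libraries of these did not overlap in IC-F. Below them, dnah10 overlapped dnah12 (23.9 ± 0.80 FPKM), dnah12 overlapped dnah5 (20.7 ± 2.8 FPKM), and dnah6 (14.0 ± 0.43 FPKM) overlapped dnah2 (14.0 ± 0.58 FPKM). In HT-F the 7 chains from dnah9l to dnah2 had means between 8.68 and 14.3 FPKM, and each overlapped its neighbour in the order. In NC-M the second place was that of dnah5, at 32.2, 44.4 and 18.0 FPKM.

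In HT-F, IC-F and NC-M 3 the highest members were chains outside the motor, dnai2b and dnali1. In NC-M 1 and NC-M 2 dnah1 stood above dnali1, and in NC-M 1 also above dnai2b. The outer arm intermediate chain dnai2b had 244, 227 and 190.4 FPKM in HT-F libraries, 39.7, 45.4 and 194 FPKM in NC-M libraries and 229.7, 255 and 243 FPKM in IC-F libraries. The inner arm light intermediate chain dnali1 had 207, 185 and 154 FPKM in HT-F libraries, 28.4, 20.2 and 160.3 FPKM in NC-M libraries and 336, 309.97 and 328 FPKM in IC-F libraries. Heated libraries overlapped the day 0 libraries for dnai2b and lay below them for dnali1. Heavy chains made up 13.1% to 15.1% of the members' summed FPKM in HT-F, against 39.9% and 45.3% in NC-M 1 and NC-M 2, 19.8% in NC-M 3 and 16.2% to 16.9% in IC-F. In NC-M 1 and NC-M 2 most of this was dnah1 and dnah5. They had 48.9 and 32.2 of 103.8 FPKM in NC-M 1, and 44.4 FPKM each of 119 FPKM in NC-M 2. The other heavy chains apart from dnah5l lay at 6.81% to 28.2% of their IC-F mean in NC-M 1. In NC-M 2 they lay at 7.16% to 37.2%.

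Testis-type libraries held far more of this RNA than ovary-type libraries of the same day and, at day 28, of the same temperature. Differences and their standard errors (SE) are in units of log2(FPKM + 1), so that changes of low genes are understated, and adjusted p-values come from limma over all genes tested, called under 0.05. In HT-F against HT-M, 21 of 22 members were called higher and 1 lower, where 47.7% and 26.3% of all genes tested were called higher and lower. In NC-M against NC-F, 19 were called higher and 1 lower, beside 48.9% and 27.9% of all genes. In IC-F against IC-M, 21 were called higher and 1 lower, beside 49.3% and 28.6% of all genes. The median member difference was 3.65, 2.52 and 4.64 in these 3 comparisons, against 0.52, 0.57 and 0.57 over all genes tested. Genes were tested if they had at least 1 FPKM in at least 3 fitted libraries. Only 10 of the 22 members met this within the ovary-type libraries alone. The others, dnali1 among them, were tested through the testis-type libraries, where they are high. Their calls are therefore not counted as support for a difference, and their levels stand as a description. The widest gap on day 0 was that of dnali1, at 7.94 ± 0.51 (SE, adjusted p = 1.57e-09), with 0.69, 0.06 and 0.30 FPKM in IC-M libraries.

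The 2 members not called between NC-M and NC-F were dnaaf6 and odad4. Both were called without NC-M 1 or NC-M 2, which gave 22 calls, against 18 or 19 without NC-M 3 or an NC-F library. The assembly factor dnaaf6, a cochaperone-like protein, had 17.2, 13.2 and 81.2 FPKM in NC-M libraries, against 13.3, 14.3 and 13.7 FPKM in NC-F libraries. Its NC-M 1 and 2 values thus lay about at those of NC-F, and its difference was 0.91 ± 0.43 (SE, adjusted p = 0.0693). It was 1.21 and 1.39 without NC-M 1 and without NC-M 2 (adjusted p = 0.0301 and 0.0071), and without NC-M 3 it was 0.12 (adjusted p = 0.491). The docking complex gene odad4 was listed at 0, 0 and 45.1 FPKM in NC-M libraries, against 0 in every ovary-type library (adjusted p = 0.0957). The adjusted p was 0.0195 and 0.0194 without NC-M 1 and without NC-M 2, and the difference was 0 without NC-M 3. It had 57.1, 42.1 and 40.6 FPKM in HT-F libraries and 117.4, 115 and 118 FPKM in IC-F libraries. An exact 0 can be a failed estimate in a table without counts. Of 6743 entries at 10 FPKM or more in the other 7 testis-type libraries, 4 were listed at 0 in both NC-M 1 and NC-M 2.

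The exception to the testis pattern was dnah5l, a second dnah5-like entry. It had 0.13, 0.27 and 0.17 FPKM in HT-F libraries, against 2.23, 1.98 and 2.16 FPKM in HT-M libraries. On day 0 it had 0.19, 0.16 and 0.18 FPKM in IC-F libraries, against 1.95, 2.20 and 2.14 FPKM in IC-M libraries. Each testis-type library lay below each ovary-type library, and the differences were -1.39 ± 0.12 (SE, adjusted p = 6.75e-08) at 28 °C, -0.69 ± 0.12 (adjusted p = 9.34e-05) at 20 °C and -1.40 ± 0.12 (adjusted p = 5.09e-08) on day 0. It passed the filter on low values only through the ovary-type libraries, where it is high, so these calls are not counted as support for a difference. Its levels are low throughout, and how the authors' counting divided reads between dnah5 and dnah5l is not given in the sources used here.

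After 28 days at 20 °C, against day 0, most members fell. In NC-M against IC-F, 17 of 21 members that passed the filter on low values were called lower and none higher, where 18.1% of all genes tested were called lower and 16.4% higher. The median member difference was -2.09, against 0.13 over all genes tested. For 18 members every NC-M library lay below every IC-F library, which held for 23.5% of all genes. By role, 5 of 8 heavy chains, all 5 intermediate and light chains, all 4 assembly factors and odad2, odad3 and odad4 were called. The size of the count rests on single libraries. It was 20 without NC-M 3 (19 lower and dnah5 higher), 8 without NC-M 1 or NC-M 2, and 6, 5 and 5 without IC-F 1, 2 and 3.

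The docking complex gene odad3 had 7.15, 7.57 and 26.7 FPKM in NC-M libraries, against 60.6, 59.0 and 62.5 FPKM in IC-F libraries. It fell by 2.31 ± 0.42 (SE, adjusted p = 0.00626). The outer arm heavy chain dnah9l had 4.28, 6.21 and 19.2 FPKM in NC-M libraries, against 41.7, 46.4 and 47.9 FPKM in IC-F libraries. It fell by 2.34 ± 0.43 (adjusted p = 0.00654), and dnali1, with values given above, fell by 2.81 ± 0.65 (adjusted p = 0.0135). These 3 kept their call in all 12 alternatives tried.

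Of the assembly factors, dnaaf2 (kintoun, which helps heavy chains fold before assembly) had 7.04, 7.54 and 53.5 FPKM in NC-M libraries, against 104, 106 and 102 FPKM in IC-F libraries, and fell by 2.76 ± 0.65 (SE, adjusted p = 0.0145). With IC-F values of 144, 138 and 152 FPKM, dnaaf6 fell by 2.40 ± 0.56 (adjusted p = 0.0146). The inner arm heavy chain dnah3 had 2.10, 2.21 and 16.6 FPKM in NC-M libraries, against 30.4, 31.5 and 30.7 FPKM in IC-F libraries, and fell by 2.51 ± 0.59 (adjusted p = 0.0146). In each of these genes NC-M 1 and NC-M 2 were low, NC-M 3 was in between, and no NC-M library reached the IC-F libraries. The calls of dnaaf2 and dnah3 were lost without IC-F 2 (adjusted p = 0.0504 and 0.0508) and that of dnaaf6 without IC-F 3 (adjusted p = 0.0511).

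Of the other called members, all had NC-M 1 and NC-M 2 as their lowest testis-type libraries. The inner arm intermediate chain dnai3 had 29.2, 23.4 and 21.2 FPKM in HT-F libraries, 10.1, 4.7 and 35.2 FPKM in NC-M libraries and 58.7, 66.8 and 64.4 FPKM in IC-F libraries. The docking complex gene odad2 had 50.2, 38.5 and 36.7 FPKM in HT-F libraries, 4.83, 5.34 and 45.2 FPKM in NC-M libraries and 64.0, 59.7 and 65.6 FPKM in IC-F libraries. The assembly factor dnaaf4 had 85.8, 77.1 and 76.4 FPKM in HT-F libraries, 17.5, 19.2 and 86.7 FPKM in NC-M libraries and 104.7, 99.2 and 104 FPKM in IC-F libraries. In all 3, NC-M 3 lay inside or near the range of the heated libraries. Of the low inner arm chains, dnah10 had 4.43, 7.36 and 20.5 FPKM and dnah12 4.38, 4.28 and 16.4 FPKM in NC-M libraries, and both were called. The chains dnah2 and dnah6 were not called (adjusted p = 0.051 and 0.187), with 3.93, 4.67 and 13.0 FPKM of dnah2 and 3.23, 5.21 and 19.2 FPKM of dnah6 in NC-M libraries. For dnah6, NC-M 3 stood above all 3 IC-F libraries, at 14.1, 13.5 and 14.4 FPKM.

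Heated testis-type libraries lay below day 0 by less than NC-M 1 and NC-M 2 did, but not by less than NC-M 3. The median member was at 68.5% of its IC-F mean in NC-M 3, against 53.8% to 63.7% in HT-F libraries. In HT-F against IC-F, 2 of 21 members were called lower, dnah9l and dnah1, and none higher, where 9.04% of all genes tested were called lower and 14.8% higher. Yet for 18 members every HT-F library lay below every IC-F library, beside 25.4% of all genes, and the median member difference was -0.76, against 0.10 over all genes. The fit shares 1 estimate of the spread with NC-M, whose libraries differ among themselves. The level of dnah9l was 16.1, 11.8 and 15.0 FPKM in HT-F libraries and it fell by 1.61 ± 0.43 (SE, adjusted p = 0.0308) relative to IC-F. With the values given above, dnah1 fell by 0.71 ± 0.22 (adjusted p = 0.0496). Both calls ended when HT-F 1, 2 or 3 or IC-F 1, 2 or 3 was left out, and without HT-F 1 the 1 member called was odad1, higher.

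The outer arm intermediate chains were not below day 0 in every heated library. The difference of dnai2b was -0.14 ± 0.52 (SE, adjusted p = 0.862). Its partner dnai1.2 had 33.2, 29.2 and 25.9 FPKM in HT-F libraries, 7.39, 7.93 and 28.2 FPKM in NC-M libraries and 32.0, 30.3 and 34.0 FPKM in IC-F libraries, with a difference of -0.13 ± 0.43 (adjusted p = 0.853) between HT-F and IC-F. The third was the docking complex gene odad1, low in testis-type libraries at 0.59, 5.54 and 5.04 FPKM in HT-F, 1.72, 1.2 and 2.06 FPKM in NC-M and 1.14, 1.25 and 1.5 FPKM in IC-F, and listed at 0 in all 9 ovary-type libraries. HT-F 2 and HT-F 3 stood above all other libraries for odad1, and HT-F 1 below them.

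**Figure D2:**
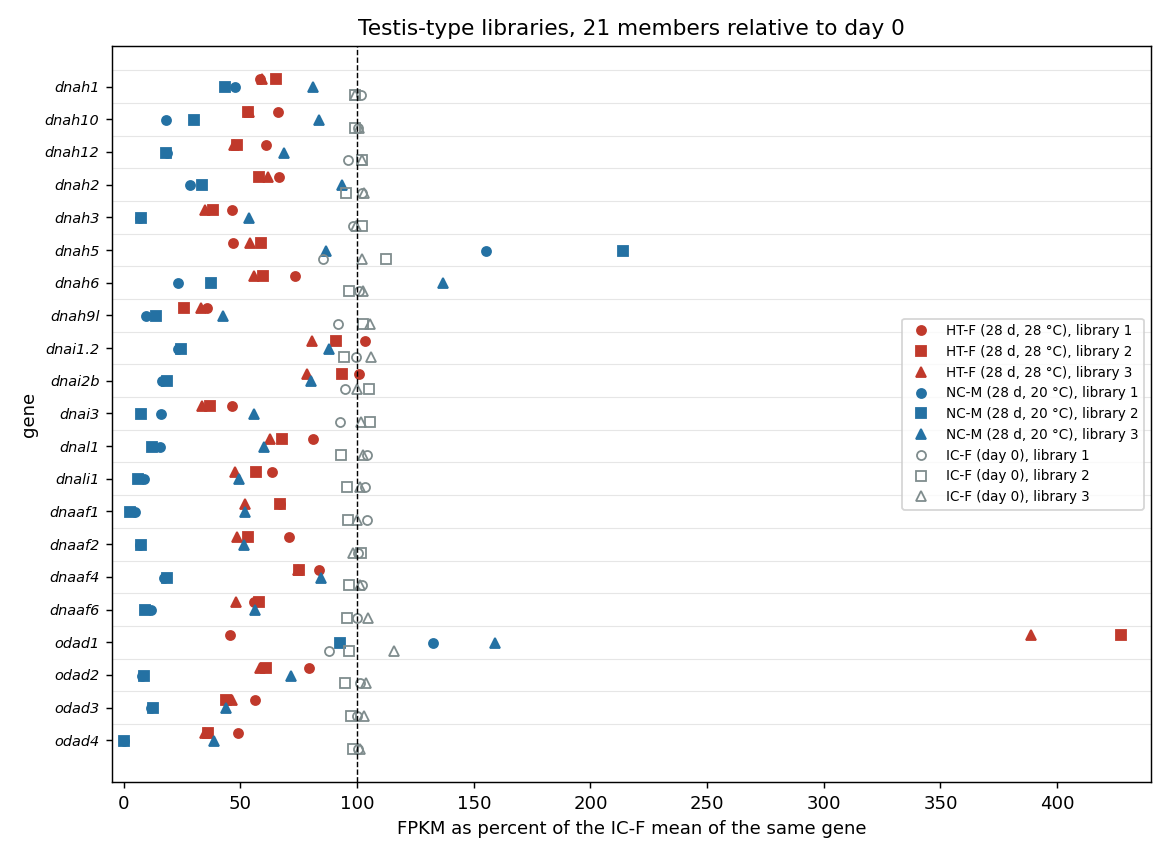
Each of 21 members (rows) in each testis-type library, as percent of the mean of the 3 IC-F libraries. Filled blue circles and squares (NC-M 1 and NC-M 2) lie far left for most genes, and dnah5 has them at 155% and 214%. The blue triangle (NC-M 3) lies right of the red HT-F points for the heavy chains and near them for most other genes.

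Between the 2 temperatures at day 28 only dnah5 was called by the test over these libraries. For every heavy chain NC-M 3 lay above all HT-F libraries. The heavy chains summed to 206.5 FPKM in NC-M 3, against 138.7 to 150.5 FPKM in HT-F libraries. NC-M 3 also lay above HT-F for dnai3 and dnaaf4, and inside the HT-F range for most other members. In HT-F against NC-M, 1 of 21 members was called lower and none higher, where 4.5% of all genes tested were called lower and 6.17% higher. At an unadjusted p under 0.05 there were 12 of 21 members, beside 37.2% of all genes. The difference was positive for 20 members and the median was 1.24, against 0.09 over all genes. HT-F and NC-M libraries did not overlap for 2 members that were higher, dnaaf1 and dnal1, and for dnah5, which was lower, where 18.4% and 12.8% of all genes were apart in these directions. Leaving out NC-M 3 gave 20 calls, 19 higher and dnah5 lower. Leaving out HT-F 2, HT-F 3, NC-M 1 or NC-M 2 gave 0 calls, and leaving out HT-F 1 gave 1, odad1. This comparison shares the NC-M libraries with that of NC-M against IC-F.

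Of the 21 members tested, the 2 that were higher in HT-F with separate libraries were an assembly factor and a light chain. Libraries were apart in this direction for 18.4% of all genes, so this count does not set the members apart from other genes. The values of both genes are given as a description. Assembly factor dnaaf1 had 38.5, 38.5 and 29.9 FPKM in HT-F libraries, against 2.64, 1.52 and 29.9 FPKM in NC-M libraries. Its lowest heated library thus lay just above NC-M 3, and the difference of 2.47 was not called. The outer arm light chain dnal1 had 66.4, 55.5 and 51.2 FPKM in HT-F libraries, against 12.5, 9.75 and 49.2 FPKM in NC-M libraries, a difference of 1.59 that was not called.

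The outer arm heavy chain dnah5 went the other way. It had 9.73, 12.2 and 11.2 FPKM in HT-F libraries, 32.2, 44.4 and 18.0 FPKM in NC-M libraries and 17.7, 23.3 and 21.2 FPKM in IC-F libraries. Every heated library lay below every other testis-type library, and NC-M 1 and NC-M 2 above all others. In HT-F against NC-M it fell by 1.35 ± 0.29 (SE, adjusted p = 0.0343), a call kept in 5 of 12 alternatives. The call was lost with no filter on low values, with the replicate number as a block and without any library of these groups other than NC-M 3. In NC-M against IC-F its difference was 0.50 ± 0.29 (adjusted p = 0.212), and without NC-M 3 it was called higher (adjusted p = 0.00592).

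The proportion of dnah9l to dnah5 thus differed between libraries. The ratio of dnah9l to dnah5, both per kilobase, was 1.65, 0.964 and 1.34 in HT-F libraries, 0.133, 0.140 and 1.07 in NC-M libraries and 2.35, 1.99 and 2.26 in IC-F libraries. IC-F libraries were the highest, HT-F libraries and NC-M 3 lay around 1, and NC-M 1 and NC-M 2 far below. The ratio of the outer arm intermediate chains, dnai2b to dnai1.2, was 7.35, 7.76 and 7.36 in HT-F libraries, 5.37, 5.72 and 6.89 in NC-M libraries and 7.18, 8.44 and 7.14 in IC-F libraries. This second ratio spanned a narrower range. These pairs were chosen after their values were seen, so no test is given.

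**Figure D3:**
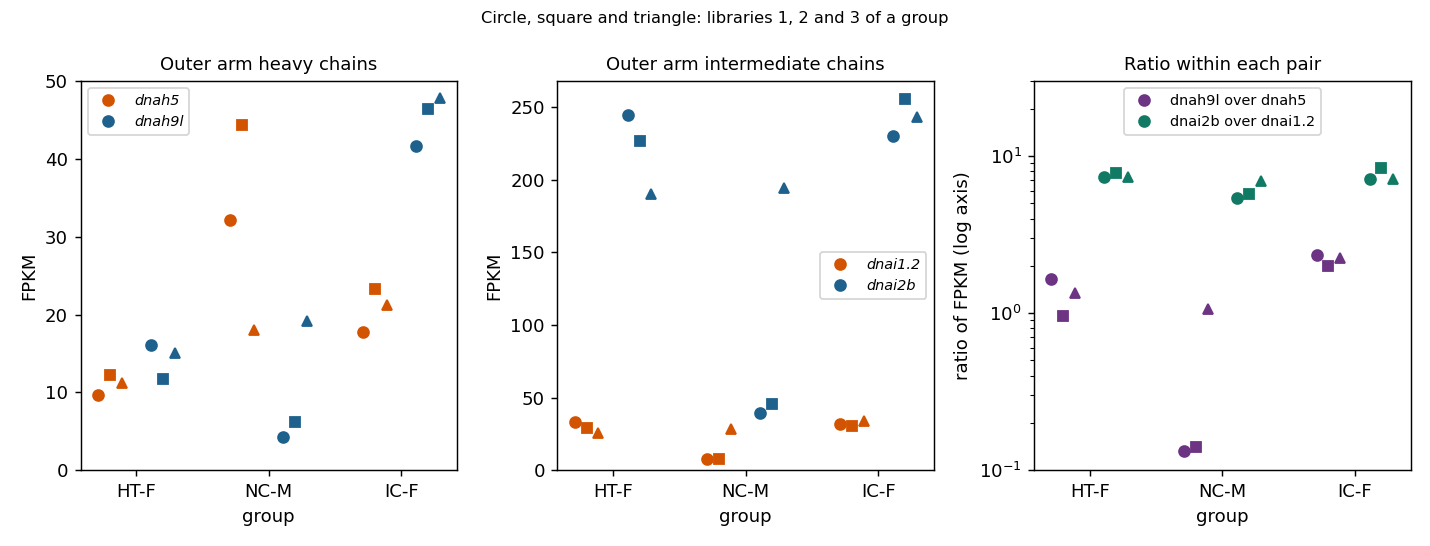
FPKM of the heavy chains dnah5 and dnah9l (left) and the intermediate chains dnai1.2 and dnai2b (middle), and the ratio within each pair on a log axis (right), in the 9 testis-type libraries. The ratio of dnah9l to dnah5 is 0.133 and 0.140 in NC-M 1 and NC-M 2 and 0.964 to 2.35 in the other libraries, while dnai2b over dnai1.2 stays between 5.37 and 8.44.

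Marker genes of spermatids were low in the same NC-M libraries as the members, and those of meiotic cells in part. A list of 18 measured spermatid and sperm tail genes without dyneins had a median of 5.36, 5.57 and 5.41 on the log2(FPKM + 1) scale in HT-F libraries, 3.53, 3.68 and 5.65 in NC-M libraries and 5.86, 5.80 and 5.82 in IC-F libraries, with summed levels of 2330 to 2591, 1299 to 2374 and 4086 to 4193 FPKM in these groups. Of its genes that passed the filter, 11 of 16 were called lower and 2 higher in NC-M against IC-F, and 7 lower and 0 higher without any 1 of the IC-F libraries. The 15 meiotic genes summed to 1500 to 1775 FPKM in HT-F, 530.2, 797 and 1719 FPKM in NC-M 1, 2 and 3, and 1115 to 1248 FPKM in IC-F. They were thus not highest on day 0 as the members were. In NC-M against IC-F 4 of 15 were called lower and 1 higher (msh4, at 1.05), with a median of -0.36. These were 8 lower and 1 higher without NC-M 3, and 2 lower and 3 higher without NC-M 1. Without NC-M 2 or an IC-F library they were 1 to 2 lower and 1 higher. Of 12 spermatogonia genes tested, 2 were called lower and none higher, with a median of 0.05. The 15 spermatogonia genes summed to 837.8 to 1153 FPKM in HT-F, 439, 659 and 919 FPKM in NC-M 1, 2 and 3, and 565 to 578 FPKM in IC-F. The 9 Sertoli cell genes summed to 524 to 676 FPKM in HT-F, 521, 596 and 368 FPKM in NC-M 1, 2 and 3, and 389.9 to 395 FPKM in IC-F. NC-M 1 and NC-M 2 were thus low in the sums of the meiotic and spermatid lists and not in that of the Sertoli list, while single meiotic genes went both ways. The median of the spermatogonia genes on the log2(FPKM + 1) scale was 1.64 to 1.66 in NC-M. This was below the 1.86 to 2.01 of HT-F and the 2.41 to 2.50 of IC-F. No gene of these lists was at 0 in a whole testis-type group, and their part in the members' differences was not tested.

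**Figure D4:**
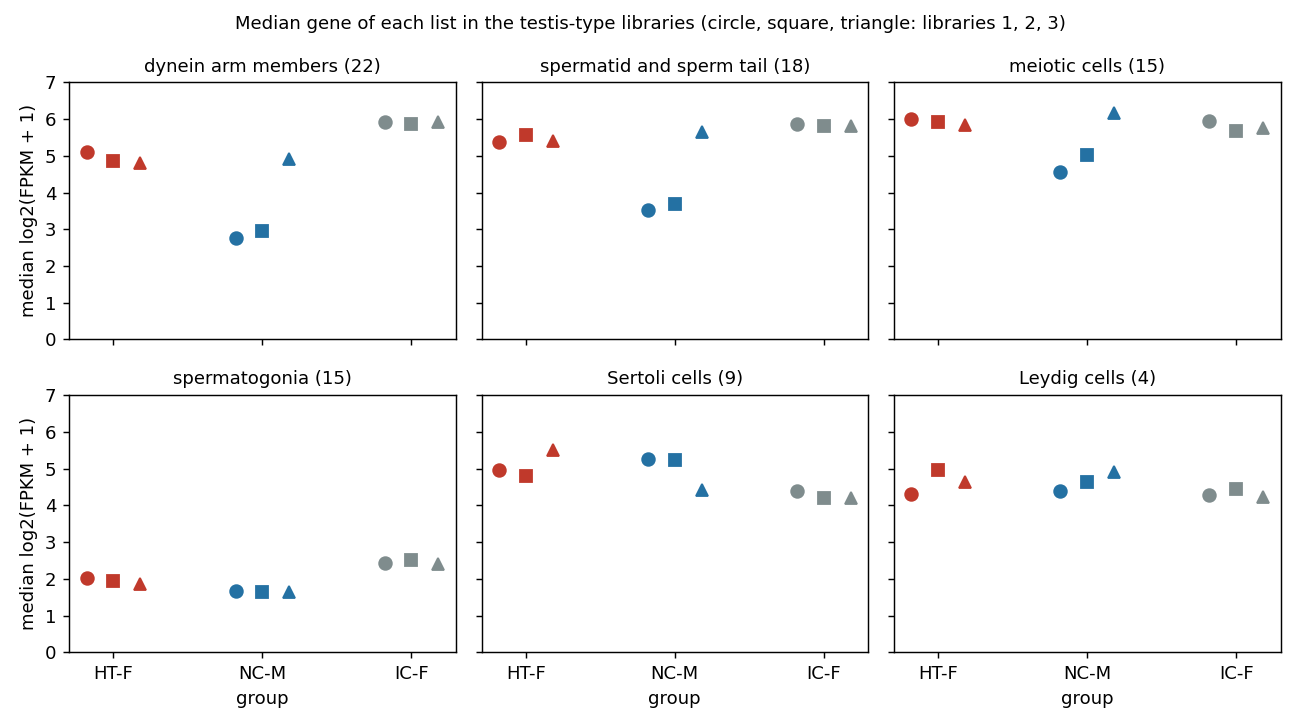
Median log2(FPKM + 1) of the members and of 5 cell type lists (number of genes in brackets) in each testis-type library. The medians of NC-M 1 and NC-M 2 are low for the members, for spermatid genes (3.53 and 3.68) and for meiotic genes (4.56 and 5.01), and not for Sertoli or Leydig cell genes. The median of the spermatogonia genes is lower in every NC-M library (1.64 to 1.66) than in HT-F (1.86 to 2.01) and IC-F (2.41 to 2.50). Single genes of that list went both ways, with a median change of 0.05 in NC-M against IC-F.

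Most genes of other parts of the motile axoneme were called lower in NC-M against IC-F, where 18.1% of all genes were called lower and 16.4% higher. There 15 of 18 radial spoke and central pair genes were called lower and none higher, with a median of -2.05. Of 12 genes of the nexin link (which joins neighbouring doublets) and of the ruler that spaces the arms, 9 were called lower and none higher. Among 33 further assembly, docking and tail genes, 27 were called lower and 2 higher. These lists are not wholly separate from the spermatid list above. It shares tekt genes with the list of 33 and ropn1l with the radial spoke list. Leaving out 1 library gave 7 to 16 of the 18, 5 to 12 of the 12 and 16 to 29 of the 33 as lower, the highest each time without NC-M 3 and the lowest without IC-F 2 or IC-F 3 (for the 12 also without NC-M 2). Of 16 genes of cytoplasmic dynein, which carries cargo and shares light chains with the arms, 5 were called lower and 2 higher, with a median of -0.31; without single libraries these were 3 to 8 lower and 1 to 4 higher. In HT-F against NC-M the calls were 0 of 18, 0 of 12, 4 higher and 1 lower of 33, and 3 higher of 16, beside 6.17% of all genes called higher and 4.5% lower. Without NC-M 3 they were 14 higher and 1 lower of 18, 11 higher of 12, 27 higher and 1 lower of 33 and 9 higher of 16. Without any other single library none of the first 3 lists held a call, and the fourth held 0 to 2.

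In the same libraries the central pair gene cfap221 had 2.73, 2.59 and 28.6 FPKM in NC-M, against 82.9, 87.0 and 80.4 FPKM in IC-F. The nexin link gene gas8 had 7.82, 6.45 and 28.4 FPKM in NC-M, against 77.8, 77.1 and 82.1 FPKM in IC-F. NC-M 3 was again in between. The assembly factor zmynd10, a cofactor in heavy chain folding, was called in both comparisons, with 59.9, 54.3 and 55.5 FPKM in HT-F, 10.0, 12.7 and 39.6 FPKM in NC-M and 59.0, 58.4 and 56.7 FPKM in IC-F. It rose in HT-F against NC-M by 1.65 ± 0.42 (SE, adjusted p = 0.0452), a call kept without NC-M 3 and lost without any other library of these groups (adjusted p = 0.0933 to 0.131). It fell in NC-M against IC-F by 1.69 (adjusted p = 0.0172), a call lost without NC-M 2 or any 1 of the IC-F libraries (adjusted p = 0.0549 to 0.0595). The assembly factor spag1a, a cochaperone, went against its list, with 3.43, 3.70 and 3.26 FPKM in HT-F, 5.59, 6.93 and 5.26 FPKM in NC-M and 1.70, 2.01 and 2.06 FPKM in IC-F. It fell by 0.63 ± 0.15 (adjusted p = 0.042) in HT-F against NC-M, a call likewise kept without NC-M 3 and lost without any other library (adjusted p = 0.0758 to 0.126), and rose by 1.24 ± 0.15 (adjusted p = 0.00197) in NC-M against IC-F.

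In a further pair of tail genes NC-M 3 lay closer to NC-M 1 and NC-M 2. The arm assembly and attachment gene ccdc103 had 740.3, 964 and 802 FPKM in HT-F, 858, 927 and 771 FPKM in NC-M and 1533, 1655 and 1586 FPKM in IC-F, and fell in NC-M against IC-F by 0.90 ± 0.17 (SE, adjusted p = 0.00661). The ruler gene ccdc39 had 17.0, 13.2 and 13.4 FPKM in HT-F, 12.0, 11.5 and 15.3 FPKM in NC-M and 26.8, 24.95 and 26.9 FPKM in IC-F, and fell in NC-M against IC-F by 0.98 ± 0.16 (adjusted p = 0.00418). For both, HT-F and NC-M libraries overlapped and lay below day 0, and the calls were kept without any 1 library. NC-M 1 and NC-M 2 were the lowest libraries for ccdc39 and among the higher of the 6 for ccdc103.

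Of the factors that switch on ciliary genes, foxj1a, the main regulator of motile cilia in zebrafish and mouse, reached at most 0.13 FPKM in testis-type libraries and was at 0 in all ovary-type libraries, and foxj1b reached at most 0.78 FPKM. The regulatory factor rfx2, needed for mouse spermatids to grow tails, had 62.6, 63.7 and 56.4 FPKM in HT-F libraries, 11.4, 13.6 and 47.3 FPKM in NC-M libraries and 75.8, 75.7 and 78.0 FPKM in IC-F libraries. As in most members NC-M 1 and NC-M 2 were lowest, while NC-M 3 lay below all HT-F libraries. It fell in NC-M against IC-F by 1.91 ± 0.44 (SE, adjusted p = 0.0139), and its difference in HT-F against NC-M was 1.58 ± 0.44 (adjusted p = 0.0549), called without NC-M 3 (adjusted p = 2.07e-05). Its relative rfx3 had 0.97, 0.95 and 2.82 FPKM in NC-M, against 7.45, 7.46 and 8.25 FPKM in IC-F, and fell by 1.83 ± 0.26 (adjusted p = 0.0031). Of the 13 factors tested 4 were called lower and 2 higher in NC-M against IC-F, with a median of -0.23, and without NC-M 3 it was 7 and 2 of 11. Without any other library of these groups it was 3 lower and 1 higher, of 11 to 13 tested. The higher ones were rfx4, with 2.11, 1.73 and 2.12 FPKM in NC-M, against 0.85, 0.48 and 0.42 FPKM in IC-F (0.92 ± 0.19, adjusted p = 0.01), and gmnc, which passed the filter only through NC-M, at 1.29, 1.18 and 6.53 FPKM, against 0.37, 0.18 and 0.11 FPKM in IC-F. The call of gmnc (adjusted p = 0.0344) was lost without any 1 of the IC-F libraries.

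In ovary-type libraries 10 of 22 members passed the filter. Highest were dnah1, dnal1 and dnaaf6. The heavy chain dnah1 had 9.20, 7.48 and 7.97 FPKM in HT-M libraries, 7.48, 6.36 and 7.98 FPKM in NC-F libraries and 9.58, 8.45 and 6.35 FPKM in IC-M libraries, and these groups overlapped. The light chain dnal1 had 6.43, 4.93 and 7.08 FPKM in HT-M libraries, 8.23, 9.15 and 8.91 FPKM in NC-F libraries and 8.94, 9.24 and 4.18 FPKM in IC-M libraries. The assembly factor dnaaf2, the intermediate chain dnai2b and the docking gene odad3 stayed between 1.11 and 3.45 FPKM in all 9 libraries. The heavy chains dnah3, dnah9l, dnah10 and dnah12 were at or below 0.19 FPKM, and dnali1 at or below 0.71 FPKM.

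Between the temperatures 4 of these 10 were called, beside 8299 of all 17026 genes tested, so this count does not set the members apart from other genes. In HT-M against NC-F, 1 member was called higher and 3 lower, where 28.7% and 20% of all genes tested were called higher and lower. The assembly factor dnaaf6 had 8.11, 7.55 and 5.77 FPKM in HT-M libraries, against 13.3, 14.3 and 13.7 FPKM in NC-F libraries, and fell by 0.87 ± 0.15 (SE, adjusted p = 0.00252). The assembly factor dnaaf4 had 0.49, 1.44 and 2.94 FPKM in HT-M libraries, against 5.19, 4.31 and 3.94 FPKM in NC-F libraries, and fell by 1.17 ± 0.30 (adjusted p = 0.0128). Both calls were lost in a fit of all 18 libraries (adjusted p = 0.172 and 0.0701). The intermediate chain dnai1.2 had 0.61, 0.25 and 0.41 FPKM in HT-M, against 1.42, 1.29 and 1.2 FPKM in NC-F (-0.70 ± 0.14, adjusted p = 0.00385). It passed the filter only through the NC-F libraries, where it is high, so its call here and against IC-M is not counted as support for a change. Heavy chain dnah5l had 2.23, 1.98 and 2.16 FPKM in HT-M, against 1.2, 1.42 and 1.04 FPKM in NC-F, and rose by 0.50 ± 0.12 (adjusted p = 0.00894).

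In NC-F against IC-M, dnaaf6 rose by 0.59 and dnah5l fell by 0.48 (adjusted p = 0.0243 and 0.0193), and dnai1.2, tested through NC-F alone, was called at 0.47 (adjusted p = 0.0378), where 11.9% of all genes were called higher and 13.6% lower. IC-M libraries had 9.36, 10.2 and 7.08 FPKM of dnaaf6 and 0.62, 0.71 and 0.67 FPKM of dnai1.2. For dnaaf4 they had 2.74, 3.09 and 3.14 FPKM, between NC-F and 2 of the 3 HT-M libraries. The count of 3 fell to 0 without NC-F 1 or NC-F 3 and to 1, dnah5l, without NC-F 2, IC-M 1 or IC-M 3, and was 2 without IC-M 2. In HT-M against IC-M, limma called none of the 10, where 16.1% and 8.44% of all genes were called higher and lower. There 1 of 10 members had an unadjusted p under 0.05, beside 36.3% of all genes. It was dnaaf4 (-0.71, adjusted p = 0.124), which was called without HT-M 3, and dnal1 was called lower without IC-M 3. HT-M against NC-F and NC-F against IC-M share the NC-F libraries. Spermatid and sperm tail genes summed to 78.2 to 94.3 FPKM in HT-M, 68.4 to 74.1 FPKM in NC-F and 48.9 to 55.5 FPKM in IC-M, with tekt3 at 0 in all 3 groups and odf3b, spata4 and ldhba at 0 in IC-M. In HT-M against NC-F, 3 of 3 tested granulosa and theca genes (foxl2a, hsd17b1 and fshr) were called higher. Of the Leydig list 2 of 3 were called higher (star and lhcgr, not hsd3b1), and of the blood and macrophage genes 2 of 3. None of these lists held a lower call. Of 8 Sertoli genes 3 were called higher and 1 lower, and of 10 oocyte genes 1 higher and 5 lower. The gene fshr is counted in both the Sertoli and the granulosa list. Leydig and Sertoli are names of lists here and do not show such cells in ovary-type libraries. Granulosa and theca genes summed to 89.2 to 97.0 FPKM in HT-M, 44.2 to 69.8 FPKM in NC-F and 36.6 to 42.9 FPKM in IC-M, and blood and macrophage genes to 76.5 to 112, 30.9 to 39.7 and 27.4 to 34.7 FPKM in these groups. Leydig genes summed to 104 to 120.5, 60.0 to 70.4 and 58.5 to 71.5 FPKM, and oocyte genes to 6612 to 7075, 7296 to 8344 and 6977 to 7939 FPKM in HT-M, NC-F and IC-M. The Leydig hormone gene insl3 was at 0 in NC-F. The part of any of these lists in the members' differences was not tested.

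**Figure D5:**
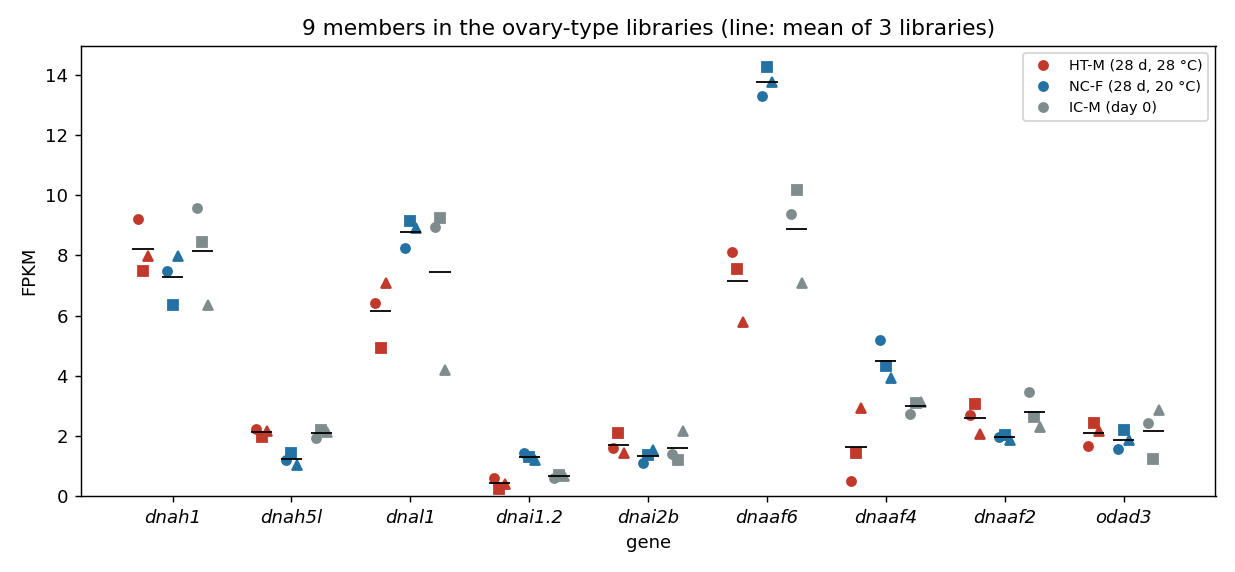
FPKM of 9 members in the ovary-type libraries, with HT-M in red, NC-F in blue and IC-M in grey, and a line at each mean of 3. NC-F stands above HT-M and IC-M for dnaaf6, dnaaf4 and dnai1.2 and below them for dnah5l.

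The difference between the heat effects of the gonad types was called for 8 members. The difference of the effects, (HT-F minus NC-M) minus (HT-M minus NC-F), was tested in 1 fit of all 18 libraries. In it 6 members were called higher and 2 lower, where 16.4% and 16.3% of all genes were. Both types share 1 estimate of the spread there, although their spreads differed. The SD of dnaaf1 was 16.0 FPKM in NC-M, against 0.17 and 0.40 FPKM in HT-M and NC-F. When each type was fitted alone, dnah5 was called between the temperatures in testis-type libraries. In ovary-type libraries these were dnaaf4, dnaaf6, dnai1.2 and dnah5l, and dnaaf1, dnal1 and dnali1 were called in neither. Higher were the 3 assembly factors dnaaf1 (2.84 ± 0.90, SE, adjusted p = 0.0265), dnaaf4 (2.50 ± 0.63, adjusted p = 0.00875) and dnaaf6 (2.38 ± 0.61, adjusted p = 0.00992). With them were the chains dnai1.2, dnal1 and dnali1, at 1.92, 2.05 and 2.20. Lower were dnah5 at -1.44 ± 0.33 (adjusted p = 0.00515) and dnah5l at -0.70 ± 0.17 (adjusted p = 0.00745). These values use NC-M with its unlike libraries: without NC-M 3 the count was 20, and with NC-M 1 or NC-M 2 left out the calls of dnaaf1 and dnali1 were lost (adjusted p = 0.0659 and 0.0641 for dnaaf1, 0.0744 and 0.0722 for dnali1). Both were lost too without HT-M 3, NC-F 2 or NC-F 3, that of dnaaf1 also without HT-M 2, and that of dnali1 also without HT-F 1, HT-F 2, HT-M 1 or NC-F 1. A fit of only the 12 libraries of these groups called 6, without dnaaf1 and dnali1 (adjusted p = 0.0632 and 0.0743). The other 6 kept their calls in every alternative that tested them (dnah5l did not pass the filter at 5 FPKM). In HT-M and NC-F dnah5 lay at 0.05 to 0.18 FPKM, dnali1 at or below 0.71 FPKM and dnaaf1 at or below 1.14 FPKM. In HT-F and NC-M dnah5l lay at 0.13 to 0.54 FPKM. Changes at such levels are compressed on this scale, so these differences come mostly from the other gonad type. In this fit dnah5 and dnali1 passed the filter only through testis-type libraries, and dnah5l only through ovary-type libraries. The calls of these genes are therefore not counted as support for unlike heat effects. For dnah5 the change in HT-F against NC-M was by itself -1.35.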

How the data were processed

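RNA-seq libraries were built from 0.4 ug of total RNA per gonad sample, per the labels' protocols. The authors deposited FPKM with 2 decimals for 43106 entries, per the file headers. The sources used here do not name the aligner, the counting tool or the genome build, so no coordinates or sequences are given. RefSeq's table for assembly ASM1485139v1 holds the symbols of all 22 members. Columns were assigned to samples by their headers and the labels. FPKM hold no depth, so precision rests on 3 libraries per group.

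Entries with at least 1 FPKM in at least 3 fitted libraries were tested on log2(FPKM + 1) with limma 3.58.1 in R 4.3.3 (lmFit, contrasts.fit, eBayes with trend) and Benjamini-Hochberg adjustment over all genes tested, called under 0.05. Comparisons within a gonad type were fitted on its 9 libraries, all others on 18. The procedure was also run on simulated data with 200 changed genes. The outcome of that run is not given here, and no statement above rests on it. Alternatives were a pseudocount of 0.1, a filter at 5 FPKM or none, median-of-ratios scaling, the replicate number as a block, another set of libraries in the fit, and each library left out. Members, gene lists and tests were chosen with earlier results of these data known. Every member is named. Values per library are given for the up to 6 called members with the smallest adjusted p and a mean of at least 5 FPKM per comparison within a type, for the 5 highest and 5 lowest members, for members at a median of 1 FPKM in ovary-type libraries, and for those not called higher in a comparison between types. Of other lists, up to 3 called genes with the smallest adjusted p per comparison could be named. Beyond these rules, dnah5, dnai1.2, dnai2b, odad1 and the genes zmynd10, gas8, ccdc39, rfx2, gmnc and foxj1b were named after their values were seen. Figures were drawn with matplotlib 3.10.9.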

Additional observations from a re-analysis of the deposited data

Results flagged for a closer look

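The change between 28 °C and 20 °C was called different between testis-type and ovary-type libraries for 8 members. By limma's test of the difference itself, 6 were higher and 2 lower, where 16.4% and 16.3% of all genes tested were. The test used 1 fit of 18 libraries with a spread shared by both types (adjusted p over all genes tested). Positive values mean a larger rise or smaller fall in testis-type libraries. On the log2(FPKM + 1) scale the differences were 2.84 for dnaaf1 (adjusted p = 0.0265), 2.50 for dnaaf4 (adjusted p = 0.00875), 2.38 for dnaaf6 (adjusted p = 0.00992), 1.92 for dnai1.2 (adjusted p = 0.00699), 2.05 for dnal1 (adjusted p = 0.017) and 2.20 for dnali1 (adjusted p = 0.0302). They were -1.44 for dnah5 (adjusted p = 0.00515) and -0.70 for dnah5l (adjusted p = 0.00745). Without single libraries the count ranged from 6 to 20. The call was kept in 11 of 18 alternatives for dnaaf1 and in 8 of 18 for dnali1. In the compared libraries of 1 gonad type, dnaaf1, dnali1, dnah5 and dnah5l each lay at or below 1.14 FPKM. Of these, dnali1 and dnah5 passed the filter on low values only through testis-type libraries, and dnah5l only through ovary-type libraries. The calls of dnali1, dnah5 and dnah5l are therefore not counted as support for unlike heat effects. This leaves no lower call that counts.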

How the results depend on the processing

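The comparisons of testis-type with ovary-type libraries kept 18 to 22 calls in every alternative that left out a library. These counts include members that passed the filter on low values through a single gonad type, whose calls are not counted as support for a difference. The labels do not tell if replicate numbers pair the libraries, and same-numbered libraries deviated together with correlations of -0.24 to 0.24. With 3 libraries per group these values cannot show whether a pairing exists. The replicate block is given as an alternative only. In HT-F against NC-M (1 call), there were 0 calls with no filter, 0 with the replicate block, 13 in the fit of 18 libraries and 0 to 20 without single libraries. In NC-M against IC-F (17 calls) the range without single libraries was 5 to 20. In HT-F against IC-F (2 calls), there was 1 with a pseudocount of 0.1, 1 with no filter, 1 with the replicate block, 7 in the fit of 18, and 0 to 1 without single libraries. In HT-M against NC-F (4 calls), there was 1 with the filter at 5 FPKM, 7 with no filter, 1 in the fit of 18, and 3 to 4 without single libraries. In NC-F against IC-M (3 calls), there was 1 with the filter at 5 FPKM, 1 with the replicate block, 1 in the fit of 18, and 0 to 2 without single libraries. In HT-M against IC-M (0 calls), there were 2 with no filter and 0 to 1 without single libraries. The difference of the heat effects (8 calls) gave 6 to 20 without single libraries and 6 in the fit of 12 libraries. List counts and list genes without single libraries, given beside their values, were added after the data were seen. The cause of these moves was not tested.

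Of 617 alternatives of 49 named gene results, 517 kept direction and side of the threshold, 79 lost the call, 20 gained it and 1 reversed: dnah1 in HT-F against NC-M was -0.032 without NC-M 2, with a range of -0.032 to 0.413 without single libraries. Of the other genes, ccdc103 (-0.0333 in HT-F against NC-M, adjusted p = 0.901) reversed to 0.0493 without HT-F 1 and 0.0298 without NC-M 2, with a range of -0.141 to 0.0493. Median-of-ratios scaling moved the median of all genes by -0.12 in NC-M against IC-F, -0.14 in HT-F against IC-F, -0.11 in HT-M against IC-M, and -0.20, -0.21 and -0.23 in IC-F against IC-M, NC-M against NC-F and HT-F against HT-M.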

Other observations

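For the heavy chains dnah10 and dnah2, which share an inner arm, the ratio was 1.75, 1.61 and 1.53 in HT-F libraries, 1.13, 1.58 and 1.57 in NC-M libraries and 1.73, 1.82 and 1.72 in IC-F libraries, with NC-M 1 below the other 8. The pair was chosen after its values were seen. NC-M 1 and NC-M 2 also held entries that the other testis-type libraries lacked. There were 35 entries at 3 FPKM or more in both and under 1 FPKM in the other 7, and 20 of these had no gene name.

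For the tail gene rsph14, NC-M 1 and NC-M 2 lay above all HT-F libraries, and for odf3b NC-M 1 lay above and NC-M 2 below them, while for most members both lay below. The radial spoke gene rsph14 had 290.2, 327 and 285 FPKM in HT-F libraries, 431, 478 and 345 FPKM in NC-M libraries and 631, 701 and 698 FPKM in IC-F libraries. The outer dense fibre gene odf3b had 324, 371 and 328 FPKM in HT-F libraries, 439, 309 and 461 FPKM in NC-M libraries and 1420.3, 1401 and 1388 FPKM in IC-F libraries. Both fell in NC-M against IC-F, by 0.70 ± 0.16 (SE, limma adjusted p = 0.0137) for rsph14 and by 1.82 ± 0.18 (adjusted p = 0.00103) for odf3b, a call that for rsph14 was lost without IC-F 2 or IC-F 3 (adjusted p = 0.057 and 0.0571), and were not called in HT-F against NC-M (adjusted p = 0.086 and 0.395), with rsph14 called lower there without NC-M 3 (adjusted p = 0.00267).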
